A study of Mus musculus with 9 samples.

Results

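The prostaglandin genes described here are 10 genes taken by name: the cyclooxygenases Ptgs1 and Ptgs2, the terminal synthases Ptges and Ptgis, the breakdown enzyme Hpgd, the prostacyclin receptor gene Ptgir and the prostaglandin E receptor genes Ptger1, Ptger2, Ptger3 and Ptger4. Every array feature whose annotated gene symbol was one of these names was used, which gave 20 of 62976 features, and 10 of 24306 genes with a symbol. Ptger3 had 4 probes, Ptges, Ptgis and Ptger4 had 3 each, Ptgs1 had 2, and the other 5 genes had 1 each. All 10 genes were measured on all 9 arrays, and 9 of them had a mean signal no lower than that of the median gene; Ptgir lay below it.

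Prostaglandins are short-range lipid signals made from arachidonic acid. A cyclooxygenase turns arachidonic acid into an unstable intermediate, which Ptges converts to prostaglandin E2 and Ptgis to prostacyclin. Prostacyclin relaxes smooth muscle through its receptor and cyclic AMP, prostaglandin E2 acts through 4 receptors that raise or lower cyclic AMP or release calcium, and the lung is a main site where Hpgd inactivates prostaglandins.

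The arrays were made from mesenchymal cells of fetal mouse lung, in 3 groups of 3 mice each, with 1 array per mouse. All groups came from pregnant mice given tamoxifen at 0.1 mg per g body weight at embryonic day E15.5, and lungs were taken at E18.5, with cells sorted straight into RNA isolation and never cultured. All sorted cells carried RFP and were stained for Acta2, the smooth muscle actin, and for PDGFRA, a growth factor receptor; the strain, the RFP allele and the promoter that drives it are not given in the sources used here. SMC denotes the Acta2-high, PDGFRA-low cells, labelled as airway and vascular smooth muscle; MYF the Acta2-low, PDGFRA-high cells, labelled as alveolar myofibroblast progenitors; and INM the cells low for both, labelled as undifferentiated progenitors of the other groups. RNA was amplified before Cy3 labelling, and values are log2 signals as deposited.

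SMC replicate 1 stood apart from the rest: its Pearson correlation with the other arrays over all features was 0.425 to 0.451, against 0.864 to 0.970 among the other 8 arrays. Differences are therefore given over the 8 arrays without it unless 9 are named. Values over all 9 arrays are added for part of the differences, and where none is added the result need not hold over 9. The smooth muscle marker list (10 genes, among them Acta2, Myh11 and Tagln) had a mean log2 signal of 11.27 to 12.66 in SMC replicates 2 and 3, 10.09 to 10.54 in MYF and 9.40 to 10.61 in INM, and was 8.76 in SMC replicate 1. The alveolar myofibroblast list (10 genes, among them Tgfbi, Hhip and Enpp2) was at 11.86 to 12.15 in MYF, 8.92 to 9.04 in INM and 8.57 to 9.52 in SMC replicates 2 and 3. Markers of cells outside the mesenchyme differed between the groups as well, as the plot of marker lists shows. The epithelial list (12 genes, led by Sftpc and Scgb1a1) was at 6.12 to 6.29 in MYF, 11.81 to 12.13 in INM and 9.65 to 11.78 in SMC replicates 2 and 3, and the endothelial list (12 genes, led by Cdh5) at 5.15 to 5.93, 9.46 to 9.52 and 8.70 to 9.32. The leukocyte list (12 genes, led by Csf1r) was at 6.20 to 6.80, 8.21 to 8.78 and 8.37 to 10.22 in the same order, and the cardiac muscle list (10 genes, led by Myh6) at 4.60 to 5.53, 8.01 to 8.37 and 10.79 to 12.70. In these bulk samples, fewer cells of a type and less RNA per cell cannot be told apart.

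**Figure D1:**
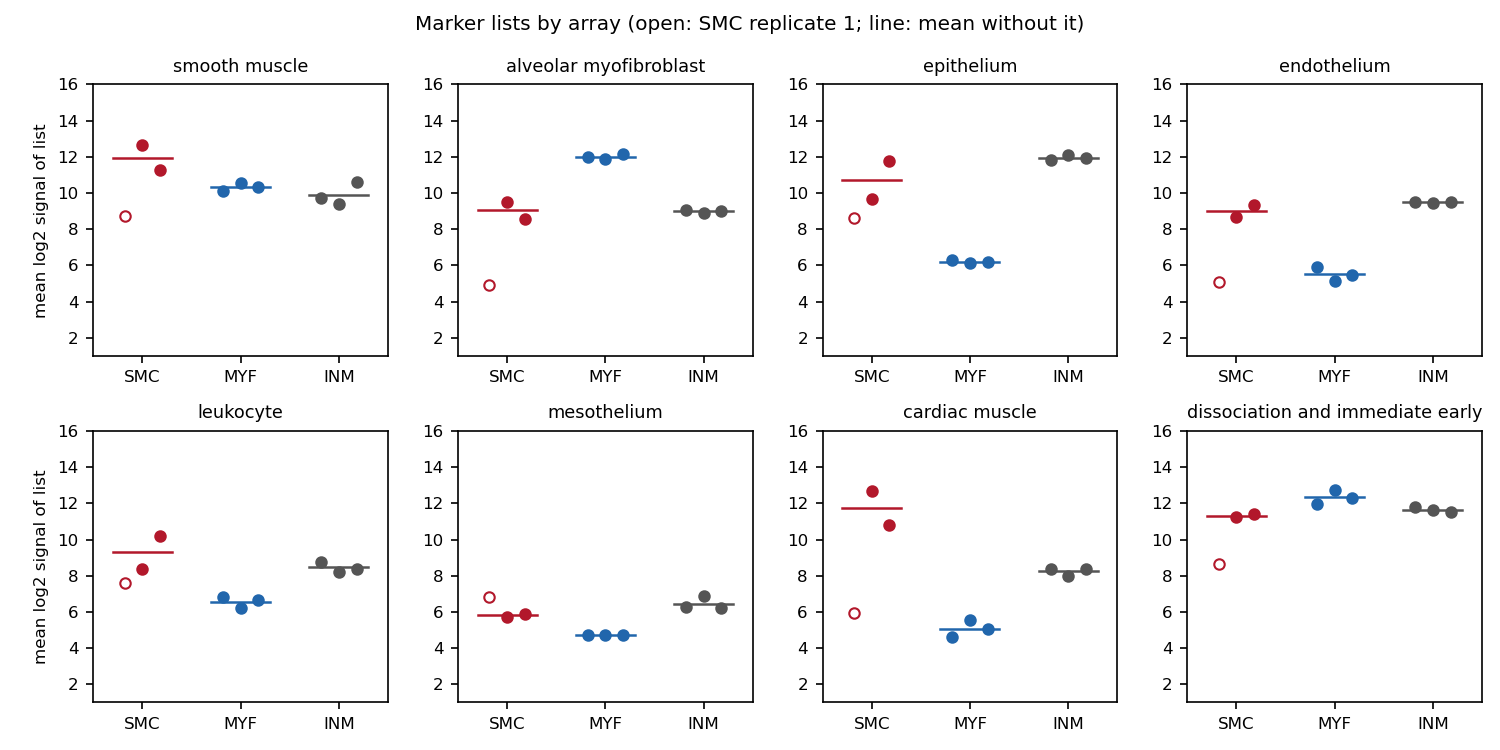
Mean log2 signal of 8 marker lists on each array, by group; points are arrays, the open point is SMC replicate 1, and lines are group means without it. The epithelial, endothelial and leukocyte lists are lowest in the 3 MYF arrays among the 8 arrays, and the alveolar myofibroblast list is highest there.

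The 10 genes did not move as a block: they fell into 4 orders of group means. Over the 8 arrays and on the brightest probe of each, Ptgs1 and Ptges had their highest group mean in MYF, Ptgis and Hpgd in SMC, and Ptgs2 and all 5 receptor genes in INM. Ptges was the one gene past the threshold, an adjusted p under 0.05 from limma with Benjamini-Hochberg adjustment over all genes. It was 1 of 10 genes higher in MYF than in INM, where 4.35% of all 24280 genes tested were called higher in MYF and 10.7% were called in either direction. It was also 1 of 10 genes lower in SMC than in MYF, where 3.54% of 24284 genes were called lower in SMC and 8.19% in either direction. SMC and INM differed in 0 of the 10 genes, against 0.247% of 24282 genes, and 0 of them had an unadjusted p under 0.05 (12.7% of all genes did). The comparisons share arrays (the MYF arrays enter the first and the second), so they are not independent. Over all 9 arrays limma called 0 of the 10 genes in any comparison, with smallest adjusted p-values of 0.371 for MYF minus INM, 0.262 for SMC minus MYF and 0.554 for SMC minus INM; the shares of all genes called were 1.1%, 0.671% and 0%, and 2, 3 and 1 of the 10 genes had an unadjusted p under 0.05, against 9.65%, 14.9% and 7.97% of all genes.

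**Figure D2:**
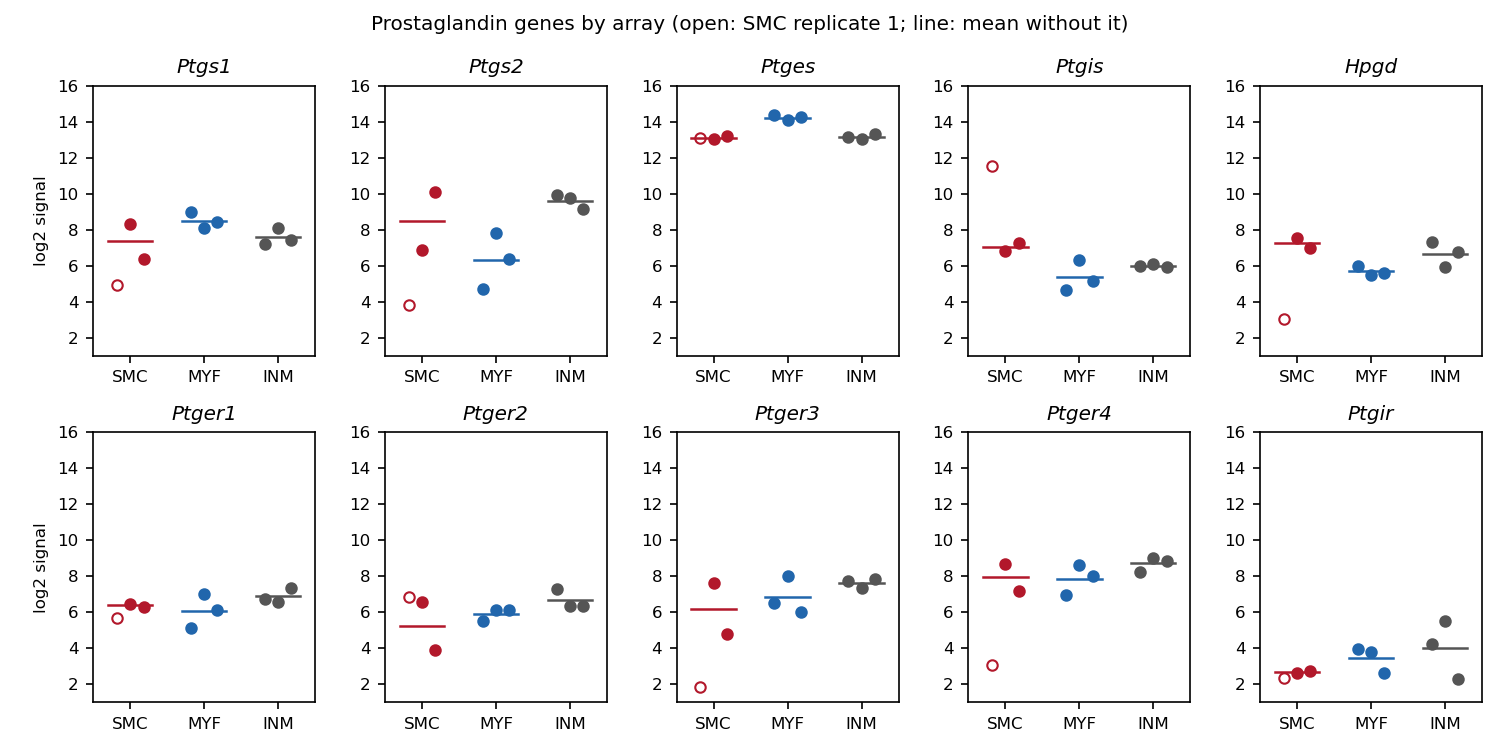
Log2 signal of each of the 10 genes on each array, by group, for its brightest probe by the mean of 9 arrays. Points are arrays, the open point is SMC replicate 1, and lines are group means without it; the 3 MYF arrays lie above all others for Ptges and the 3 INM arrays above the 3 MYF arrays for Ptgs2.

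The median log2 difference of the 10 genes was -0.77 for MYF minus INM, against 0.05 over all genes, with 2 genes positive and 8 negative. For SMC minus MYF it was -0.30 against -0.05, and for SMC minus INM -0.64 against -0.03. In MYF and INM the arrays did not overlap for 1 gene with MYF above (Ptges) and 2 genes with MYF below (Ptgs2 and Ptger2), against 18.6% and 16.5% of all genes, or 35.1% in either direction. In SMC and MYF they did not overlap for 2 genes with SMC above (Ptgis and Hpgd) and 1 with SMC below (Ptges), against 17.9% and 22.3%, or 40.2% in either direction. In SMC and INM they did not overlap for 1 gene with SMC above (Ptgis) and 1 with SMC below (Ptger1), against 12.9% and 15.3%, or 28.2% in either direction. The Ptgis probe used was the brightest of its gene only with SMC replicate 1 included. On the Ptgis probe that is brightest without it, SMC and INM overlapped. The gene counts lie near or below these background shares.

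**Figure D3:**
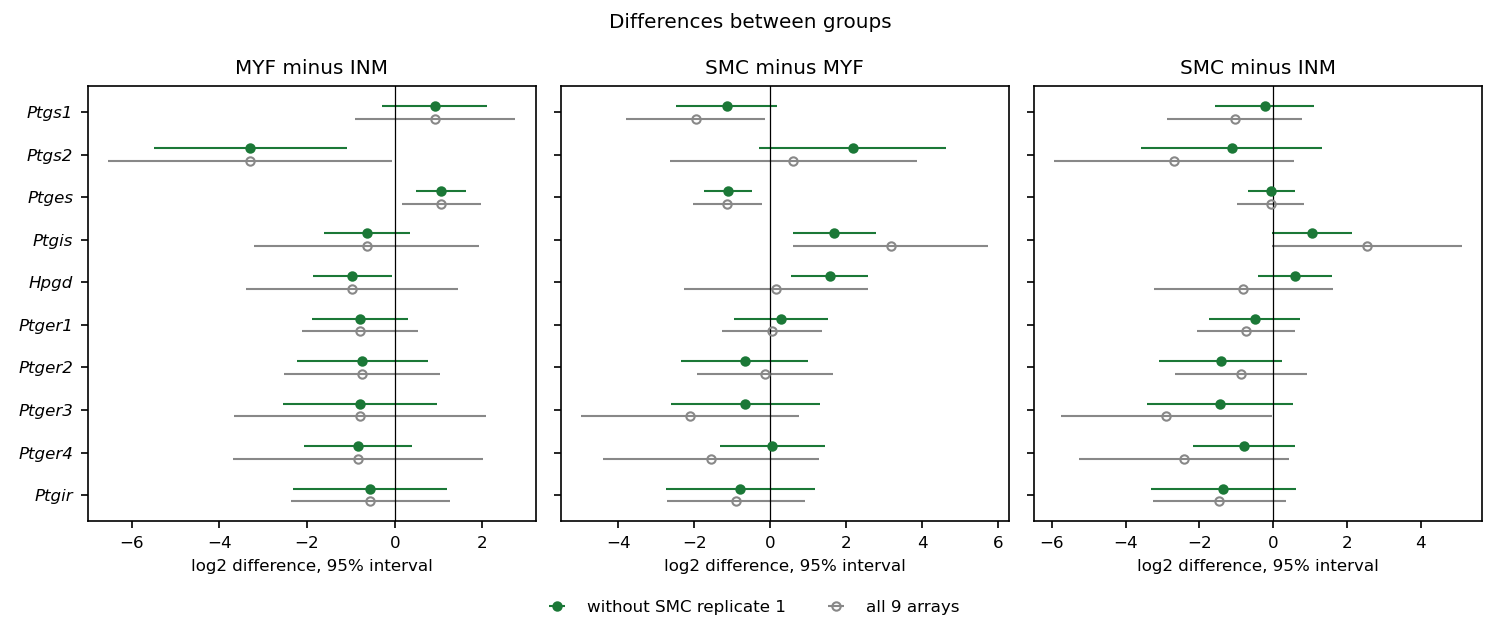
Log2 difference of each gene in the 3 comparisons, with its 95% interval from limma, over all 9 arrays and over the 8 arrays without SMC replicate 1. Over the 8 arrays Ptges stands at 1.06 for MYF minus INM and at -1.12 for SMC minus MYF.

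Ptges, the inducible microsomal synthase that makes prostaglandin E2, lies on chromosome 2 (GRCm38.p6, 30889471 to 30931020). Its log2 signal was 14.39, 14.09 and 14.26 in MYF replicates 1 to 3, 13.16, 13.08 and 13.32 in INM, and 13.09, 13.06 and 13.20 in SMC. All MYF arrays lay above all other arrays, and the SMC and INM arrays overlapped; SMC replicate 1 lay within the range of the SMC and INM arrays. The group means were 14.25 ± 0.15 in MYF (SD, n = 3) and 13.19 ± 0.13 in INM (SD, n = 3). Over 8 arrays the MYF minus INM difference was 1.06 with an SE of 0.25 (limma, adjusted p = 0.0324), and 1.06 with an SE of 0.40 over all 9 arrays (adjusted p = 0.371). SMC minus MYF was -1.12 with an SE of 0.27 (adjusted p = 0.0464), and -1.13 with an SE of 0.40 over all 9 arrays (adjusted p = 0.262). SMC minus INM was -0.05 with an SE of 0.27 (adjusted p = 0.958). With each probe fitted and adjusted by itself, the same probe passed over 8 arrays for MYF minus INM (adjusted p = 0.0455) and not for SMC minus MYF (0.0595).

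The Ptges calls depended on single arrays. For MYF minus INM the call held with MYF and INM fitted alone (limma, adjusted p = 0.0248). Leaving out SMC replicate 2 or 3 leaves 1 SMC array, which adds nothing to the estimate of the spread. Both of those fits are therefore the fit of MYF and INM alone and add no further check. Leaving out MYF replicate 1, 2 or 3 gave a limma adjusted p of 0.117, 0.0505 and 0.103, and leaving out INM replicate 1, 2 or 3 gave 0.111, 0.113 and 0.0807. The call for SMC minus MYF was lost when any 1 of the 8 arrays was left out, with adjusted p-values of 0.0651 to 0.133. The other 2 Ptges probes, of the same transcript, were dimmer and less even: one read 7.92, 8.17 and 7.52 in MYF against 7.01, 7.24 and 5.91 in INM, and the other 7.65, 8.26 and 6.85 against 7.49, 7.01 and 6.42. Their MYF minus INM differences were also positive, at 1.15 and 0.62, without passing the test (limma, each probe fitted by itself, adjusted p = 0.259 and 0.464). The first of these probes separated MYF from INM on every array, and the second overlapped.

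The sequences upstream of Ptges and Ptgs2 are shown for 2 reasons. Ptges was the one gene of the 10 called for MYF minus INM over the 8 arrays. Ptgs2 had the largest difference there, in the opposite direction, and did not pass. Each is the 250 bases before the start that RefSeq gives for the gene (GRCm38.p6), at chr2:30903298-30903547 on the minus strand for Ptges and chr1:150099781-150100030 on the plus strand for Ptgs2; the Ptges start lies inside the annotated span of the gene. Capitals mark the GC box GGGCGG in both and the palindrome TTGCGCAA, a C/EBP-type motif, in Ptgs2; each gene is printed in its own direction of transcription.
Ptges: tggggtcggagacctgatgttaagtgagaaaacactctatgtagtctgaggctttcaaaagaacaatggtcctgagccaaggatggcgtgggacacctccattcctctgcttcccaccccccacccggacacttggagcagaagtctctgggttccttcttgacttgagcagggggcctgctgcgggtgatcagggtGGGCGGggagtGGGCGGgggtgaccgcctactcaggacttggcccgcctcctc
Ptgs2: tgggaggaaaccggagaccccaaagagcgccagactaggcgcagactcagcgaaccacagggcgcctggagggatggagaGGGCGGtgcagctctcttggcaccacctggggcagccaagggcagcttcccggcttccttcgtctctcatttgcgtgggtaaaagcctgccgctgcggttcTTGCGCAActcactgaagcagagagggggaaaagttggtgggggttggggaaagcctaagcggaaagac
In Ptges the last bases of the GC boxes were at -48 and -37 from the start, and in Ptgs2 the GC box ended at -165 and the palindrome at -62. Windows were found for 8 of the 10 genes. The CArG box, TGACGTCA, TGACG and TATAAA, searched on both strands, were in none of the 8 windows, against 1.47%, 1.55%, 17.8% and 12.4% of 32851 RefSeq promoters (TGACG is part of TGACGTCA). Bases after the RefSeq start and those further upstream were not searched, so a motif there would be missed. GGGCGG, added after the sequences were seen, was in 32.7% of all promoters and TTGCGCAA, added likewise, in 0.164%; 6 of the 8 windows held at least 1 of these.

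Ptgs2, the inducible cyclooxygenase, lies on chromosome 1 (150100031 to 150108234). Its log2 signal was 9.93, 9.76 and 9.17 in INM, 4.71, 7.85 and 6.40 in MYF, and 3.83, 6.88 and 10.09 in SMC replicates 1 to 3. All INM arrays lay above all MYF arrays, and the SMC arrays ran from the lowest to the highest value of the 9. The MYF minus INM difference was -3.30 with an SE of 0.96, the largest range of group means among the 10 genes, and did not pass (limma, adjusted p = 0.0681 over 8 arrays and 0.502 over 9). It passed in 4 of 11 other settings of the 8-array fit (dim genes left out, a variance trend, array weights, and MYF and INM fitted alone), with adjusted p-values over the 11 from 0.0107 to 0.126. With single MYF or INM arrays left out the adjusted p ran from 0.0486 to 0.203. Leaving out SMC replicate 2 or 3 gives the fit of MYF and INM alone. SMC minus MYF was 2.17 with an SE of 1.07 (limma, adjusted p = 0.242), and 0.61 over all 9 arrays (adjusted p = 0.824). SMC minus INM was -1.13 with an SE of 1.07 (adjusted p = 0.711), and -2.69 over 9 arrays (adjusted p = 0.554).

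The epithelial, endothelial and leukocyte lists were also lower in MYF than in INM: limma called 12 of 12, 11 of 12 and 5 of 12 of their genes lower, with medians of -6.01, -4.24 and -1.76. Over all genes 6.35% were called lower in MYF and 4.35% higher. In the leukocyte list 1 gene was called higher in MYF: Csf1r, the receptor of a macrophage growth factor, read 13.12, 12.76 and 12.97 in MYF and 11.84 to 11.95 in INM (difference 1.04, adjusted p = 0.0333). Their part in the Ptgs2 values was not tested. The list of genes that respond to tissue dissociation, with immediate early genes such as Egr1, Jund and Junb, went the other way, with 8 of 25 genes higher in MYF than in INM, 0 lower and a median of 0.98. Its part was not tested either.

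Ptgs1, the constitutive cyclooxygenase, lies on chromosome 2 (36216742 to 36258593). Its log2 signal was 8.98, 8.10 and 8.46 in MYF, 7.23, 8.11 and 7.45 in INM, and 4.92, 8.31 and 6.41 in SMC. The lowest MYF array lay just under the highest INM array, so the groups overlapped. SMC minus INM was -0.23 over the 8 arrays and -1.05 over 9 (limma, adjusted p = 0.904 and 0.559). MYF minus INM was 0.92 with an SE of 0.52 (limma, adjusted p = 0.334) and SMC minus MYF -1.15 with an SE of 0.58 (adjusted p = 0.252), or -1.96 over all 9 arrays (adjusted p = 0.317); none of these passed. The second Ptgs1 probe gave 9.09, 7.48 and 8.56 in MYF and 7.25, 7.99 and 7.09 in INM, with a MYF minus INM difference of 0.93.

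The contrast between the cyclooxygenases was read within each array, as the log2 signal of Ptgs1 minus that of Ptgs2. This difference was 4.26, 0.25 and 2.06 in MYF, -2.70, -1.65 and -1.72 in INM, and 1.10, 1.43 and -3.68 in SMC. It was positive on every MYF array and negative on every INM array, and the SMC arrays had both signs. The means were 2.19 ± 2.01 in MYF and -2.02 ± 0.59 in INM (SD, n = 3 each), a difference of 4.21. An exact two-sided permutation test gave p = 0.1, the smallest value that 3 against 3 arrays allow. The measure was chosen after the values were seen, and groups that do not overlap always give this p-value. The test therefore adds no support. The measure compares the change of a pair of probes between arrays and not the amounts of the transcripts.

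Ptgis, the synthase of prostacyclin, lies on chromosome 2 (167203194 to 167252150). Its brightest probe, by the mean of all arrays, read 11.53, 6.85 and 7.27 in SMC, 4.65, 6.31 and 5.17 in MYF, and 6.02, 6.11 and 5.92 in INM. SMC replicates 2 and 3 lay above all MYF and INM arrays, and SMC replicate 1 was far above them all. SMC minus MYF was 1.69 with an SE of 0.48 over 8 arrays (limma, adjusted p = 0.0691) and 3.18 with an SE of 1.13 over 9 (adjusted p = 0.265). SMC minus INM was 1.05 with an SE of 0.48 (adjusted p = 0.418), or 2.54 over 9 arrays (adjusted p = 0.554), and MYF minus INM -0.64 with an SE of 0.43 (adjusted p = 0.416).

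The Ptgis probes disagreed on SMC replicate 1, as the plot of all probes shows. A second probe of the same transcript read 4.68, 8.29 and 7.34 in SMC, 4.94, 7.28 and 5.60 in MYF, and 7.05, 7.62 and 6.84 in INM. On that probe SMC replicate 1 was the lowest of the 9 arrays, and on the first it was the highest. The first probe was the brighter over 9 arrays (mean 6.65 against 6.63) only through SMC replicate 1. Over the 8 arrays the second was the brighter, and on it SMC and INM overlapped. Its SMC minus INM difference was 0.65 (limma, each probe fitted by itself, adjusted p = 0.757). Over the 8 arrays the second probe gave SMC minus MYF at 1.88 (adjusted p = 0.146), close to the first probe, while the third probe gave 0.14. Over all 9 arrays the second probe gave 0.83 and the third gave 1.44.

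**Figure D4:**
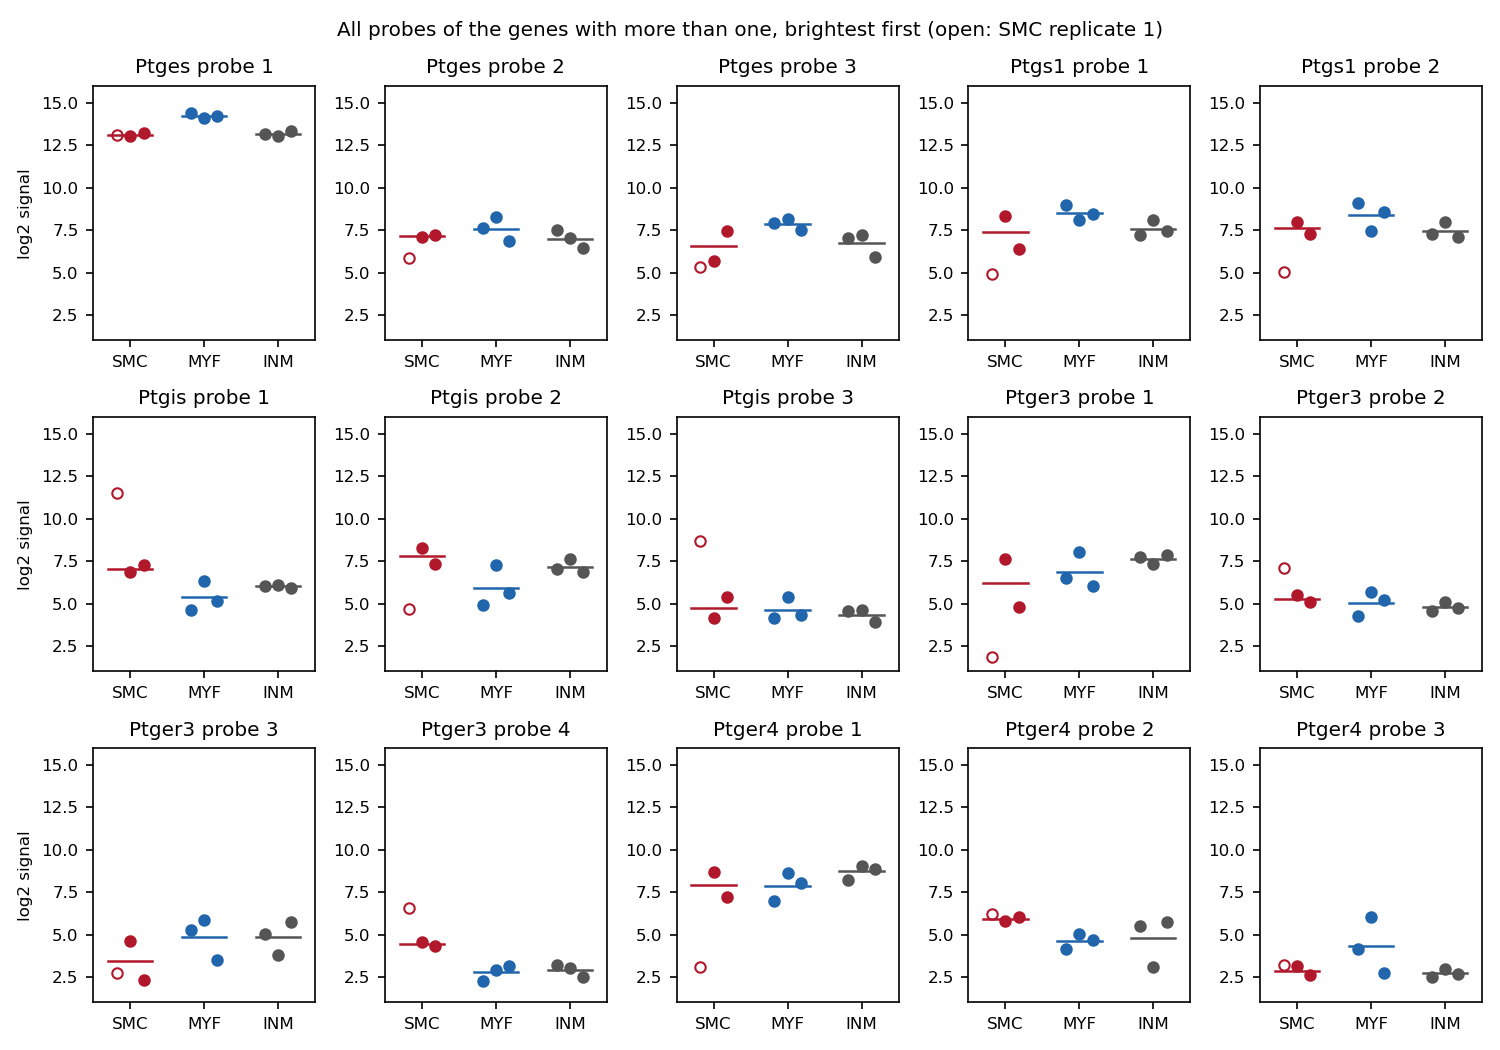
Log2 signal of every probe of the 5 genes with more than 1 probe, on each array; probes of a gene are numbered by their mean signal over the 9 arrays, highest first. Points are arrays, the open point is SMC replicate 1, and lines are group means without it; the Ptgis probes place SMC replicate 1 at opposite ends.

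Hpgd, the enzyme that starts the inactivation of prostaglandins, lies on chromosome 8 (56294552 to 56321046). Its log2 signal was 3.07, 7.55 and 7.00 in SMC, 6.01, 5.51 and 5.61 in MYF, and 7.31, 5.96 and 6.77 in INM. SMC replicates 2 and 3 lay above all MYF arrays, SMC replicate 1 lay below every other array, and INM overlapped both groups. SMC minus MYF was 1.56 with an SE of 0.44 over 8 arrays (limma, adjusted p = 0.0682) and 0.16 over all 9 (adjusted p = 0.941). MYF minus INM was -0.97 with an SE of 0.39 (adjusted p = 0.171). SMC minus INM was 0.59 over the 8 arrays and -0.81 over 9 (limma, adjusted p = 0.621 and 0.688). With dim genes left out of the 8-array fit, SMC minus MYF passed for Hpgd (adjusted p = 0.0365) and for Ptgis (0.0386). This was the only passing setting of 11 for either gene, and the others reached an adjusted p of 0.23 for Hpgd and 0.174 for Ptgis. With single arrays left out, Ptgis passed only without MYF replicate 2 (adjusted p = 0.0181) and Hpgd in none of 8 fits. For SMC minus MYF, limma called 12 of 12 epithelial, 11 of 12 endothelial, 7 of 12 leukocyte and 9 of 10 cardiac muscle markers higher in SMC, against 4.66% of all genes. The part of such cells in the Ptgis and Hpgd values was not tested.

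On their brightest probes, none of the 5 receptor genes passed in any comparison, and all had their highest group mean in INM. Other probes of Ptger3 and Ptger4 differed in direction, and a dim Ptger3 probe passed when fitted by itself, as given below. Ptger1, whose product releases calcium, read 5.68, 6.49 and 6.29 in SMC, 5.14, 7.02 and 6.16 in MYF, and 6.75, 6.58 and 7.36 in INM. Ptger2, which raises cyclic AMP, read 6.87, 6.59 and 3.92 in SMC, 5.51, 6.16 and 6.12 in MYF, and 7.29, 6.38 and 6.35 in INM. For Ptger2 all INM arrays lay above all MYF arrays, with a difference of -0.74 for MYF minus INM and an SE of 0.65 (limma, adjusted p = 0.551). Ptger1 overlapped between MYF and INM, with a difference of -0.79 and an SE of 0.48 (adjusted p = 0.367). The 95% intervals of these differences in the plot of differences include 0.

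Ptger4, which also raises cyclic AMP, lies on chromosome 15 (5233399 to 5244187). Its brightest probe read 3.06, 8.67 and 7.21 in SMC, 6.99, 8.64 and 8.02 in MYF, and 8.25, 9.05 and 8.87 in INM. SMC minus INM was -0.78 over the 8 arrays and -2.41 over 9. SMC minus MYF was 0.06 over the 8 arrays and -1.57 over 9, and none of these passed. Apart from SMC replicate 1 the groups overlapped, and MYF minus INM was -0.84 with an SE of 0.53 (limma, adjusted p = 0.392). The other 2 probes were dimmer and gave -0.15 and 1.58 for the same comparison, so that the mean of the probes had the opposite sign (0.20).

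Ptger3, which lowers cyclic AMP, lies on chromosome 3 (157566821 to 157644758) and was read by 4 probes. The brightest read 1.85, 7.63 and 4.78 in SMC, 6.52, 8.04 and 6.02 in MYF, and 7.74, 7.35 and 7.87 in INM. SMC replicates 2 and 3 differed by more than the group means did, and MYF and INM overlapped; SMC minus MYF was -0.66 with an SE of 0.85 (limma, adjusted p = 0.674), and -2.11 with an SE of 1.26 over all 9 arrays (adjusted p = 0.431). SMC minus INM was -1.45 over the 8 arrays and -2.90 over 9 (limma, adjusted p = 0.536 and 0.554). A dim probe designed on another transcript record read 6.56, 4.58 and 4.34 in SMC, 2.27, 2.93 and 3.12 in MYF, and 3.18, 3.03 and 2.47 in INM. On this probe every SMC array, replicate 1 included, lay above every other array, and SMC minus MYF was 1.69 with an SE of 0.38 over 8 arrays (limma, each probe fitted by itself, adjusted p = 0.0434). Over all 9 arrays the difference was 2.39 with an SE of 0.65, and the call was lost (adjusted p = 0.17). Its SMC minus INM difference was 1.57 (adjusted p = 0.185). The other 2 Ptger3 probes gave -1.41 and 0.23 for SMC minus MYF, and -1.65 and 0.83 over 9 arrays, so the direction for the gene depended on the probe.

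Ptgir, the prostacyclin receptor gene, lies on chromosome 7 (16906490 to 16910905). Its log2 signal was 2.35, 2.61 and 2.74 in SMC, 3.95, 3.82 and 2.63 in MYF, and 4.27, 5.51 and 2.29 in INM. These signals are near the bottom of the scale, and the INM arrays ran from the lowest to the highest of the 9. MYF minus INM was -0.56 with an SE of 0.76 (limma, adjusted p = 0.724).

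The other genes of the pathway were read from 4 lists. Of 14 other synthesis genes measured of 15, 1 rose and 2 fell in MYF against INM over the 8 arrays, by limma with adjustment over all genes, which called 4.35% of all genes higher and 6.35% lower. Pla2g5, a secreted phospholipase that frees arachidonic acid, read 7.94, 4.42 and 6.34 in MYF and 2.47 to 3.40 in INM, a difference of 3.21 (adjusted p = 0.0379). Pla2g4a, the cytosolic phospholipase that feeds the cyclooxygenases, read 6.74, 6.93 and 6.41 in MYF and 9.33 to 9.52 in INM, a difference of -2.74 (adjusted p = 0.0401). Both phospholipases separated the groups on every array, in opposite directions. Pla2g6, a calcium-independent phospholipase, was lower in MYF, with a difference of -1.24 (adjusted p = 0.0459).

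In SMC against MYF, 2 of the 14 were higher and 0 lower, against 4.66% and 3.54% of all genes. Tbxas1, the thromboxane synthase, read 6.74 and 8.32 in SMC replicates 2 and 3 and 3.03 to 4.19 in MYF, a difference of 3.77 (adjusted p = 0.0257). Tbxas1 is a gene of macrophages and platelets, and the leukocyte list was higher in SMC as given above; its part was not tested. Ptges2, another prostaglandin E synthase, was higher in SMC by 1.97 (adjusted p = 0.0260), opposite in sign to Ptges. None of the 14 was called between SMC and INM. The list of other receptors held 5 genes: Ptgdr, Ptgdr2, Ptgfr, Tbxa2r and Ptgfrn, the last not itself a prostaglandin receptor gene. None of these was called in any comparison.

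Of 6 measured transport and breakdown genes of 7, 1 rose and 1 fell in MYF against INM, where 4.35% of all genes rose and 6.35% fell. Slco2a1, the transporter that carries prostaglandins into cells, read 11.59, 11.71 and 11.70 in MYF, 10.09, 10.66 and 9.91 in INM, and 9.55 and 9.97 in SMC replicates 2 and 3. All MYF arrays lay above all others; SMC replicate 1 read 2.92. The difference was 1.45 for MYF minus INM (limma, adjusted p = 0.0200) and -1.91 for SMC minus MYF (adjusted p = 0.0135). Slco2a1 is also expressed in endothelium, and the part of endothelial cells in its values was not tested. Ptgr1, a reductase that acts after Hpgd, went the other way, with -2.37 for MYF minus INM (adjusted p = 0.0126) and 2.08 for SMC minus MYF (adjusted p = 0.0376).

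Of 24 genes that carry or end the cyclic AMP signal of the receptors, 2 rose and 2 fell in MYF against INM, where 4.35% of all genes rose and 6.35% fell. Adcy2, an adenylyl cyclase, read 9.19, 9.33 and 9.30 in MYF, 6.88, 6.88 and 6.65 in INM, and 6.22, 6.81 and 6.43 in SMC. The MYF arrays lay above all others, and the difference passed with and without SMC replicate 1: 2.48 for MYF minus INM (limma, adjusted p = 0.00114 over 8 arrays and 0.0328 over 9) and -2.65 over 8 or -2.79 over 9 arrays for SMC minus MYF (adjusted p = 0.00266 and 0.0309). Adcy2 was the one gene of the 4 lists called over all 9 arrays. Those 9-array calls held in 7 of 10 other settings for MYF minus INM, with a highest adjusted p of 0.14, and in 6 of 10 for SMC minus MYF, with a highest adjusted p of 0.257.

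Adcy5, another adenylyl cyclase, was higher in MYF than in INM by 2.93 (adjusted p = 0.00434), with 7.98, 7.57 and 8.01 against 5.31, 4.11 and 5.37. Adcy4, a further cyclase, was lower in MYF, with a difference of -1.87 (adjusted p = 0.0227), and so was the phosphodiesterase gene Pde3a, with -1.66 (adjusted p = 0.0362). In SMC against MYF, Adcy4 and Pde3a were higher, by 1.76 and 1.84 (adjusted p = 0.0479 and 0.0440), and Adcy2 and the anchoring protein gene Akap12 lower, the latter with a difference of -1.43 (adjusted p = 0.0402). None of the 24 was called between SMC and INM. When each of the 8 arrays was left out in turn, the calls of Adcy2 in both comparisons and of Adcy5 held in 8 of 8 fits, those of Ptgr1 in MYF minus INM and of Slco2a1 in SMC minus MYF in 7 of 8, those of Ptges2 and Tbxas1 in 5 of 8, and the rest in 0 to 3 of 8. Without SMC replicate 2 or 3 only 1 SMC array is left. MYF minus INM is then the same fit both times, so it is 1 check, and SMC minus MYF rests on that array. With each of 9 arrays left out, the Adcy2 call held in 3 of 9 fits for MYF minus INM and in 2 of 9 for SMC minus MYF. Under the other settings of the 8-array fit, the calls of Adcy2, of Adcy5, and of Ptgr1 and Adcy4 in MYF minus INM held in 11 of 11, and each of the rest in 6 to 9 of the 10 or 11 that gave a value.

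Several of these differences were smaller when all probes of a gene were averaged. For MYF minus INM they were then -0.93 for Pla2g4a (limma, adjusted p = 0.218), -0.59 for Pla2g6 (0.237), 0.57 for Slco2a1 (0.533) and -0.93 for Pde3a (0.0539). For SMC minus MYF they were 0.92 for Tbxas1 (0.148) and -0.93 for Slco2a1 (0.316), and Pde3a gave 1.19 and still passed (0.0375). Over all 9 arrays, with SMC replicate 1, SMC minus MYF was -4.19 for Slco2a1 and -4.08 for Akap12, 1.04 for Adcy4, and of the opposite sign for Ptgr1 (-0.23) and Pde3a (-0.55); none of these passed.

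**Figure D5:**
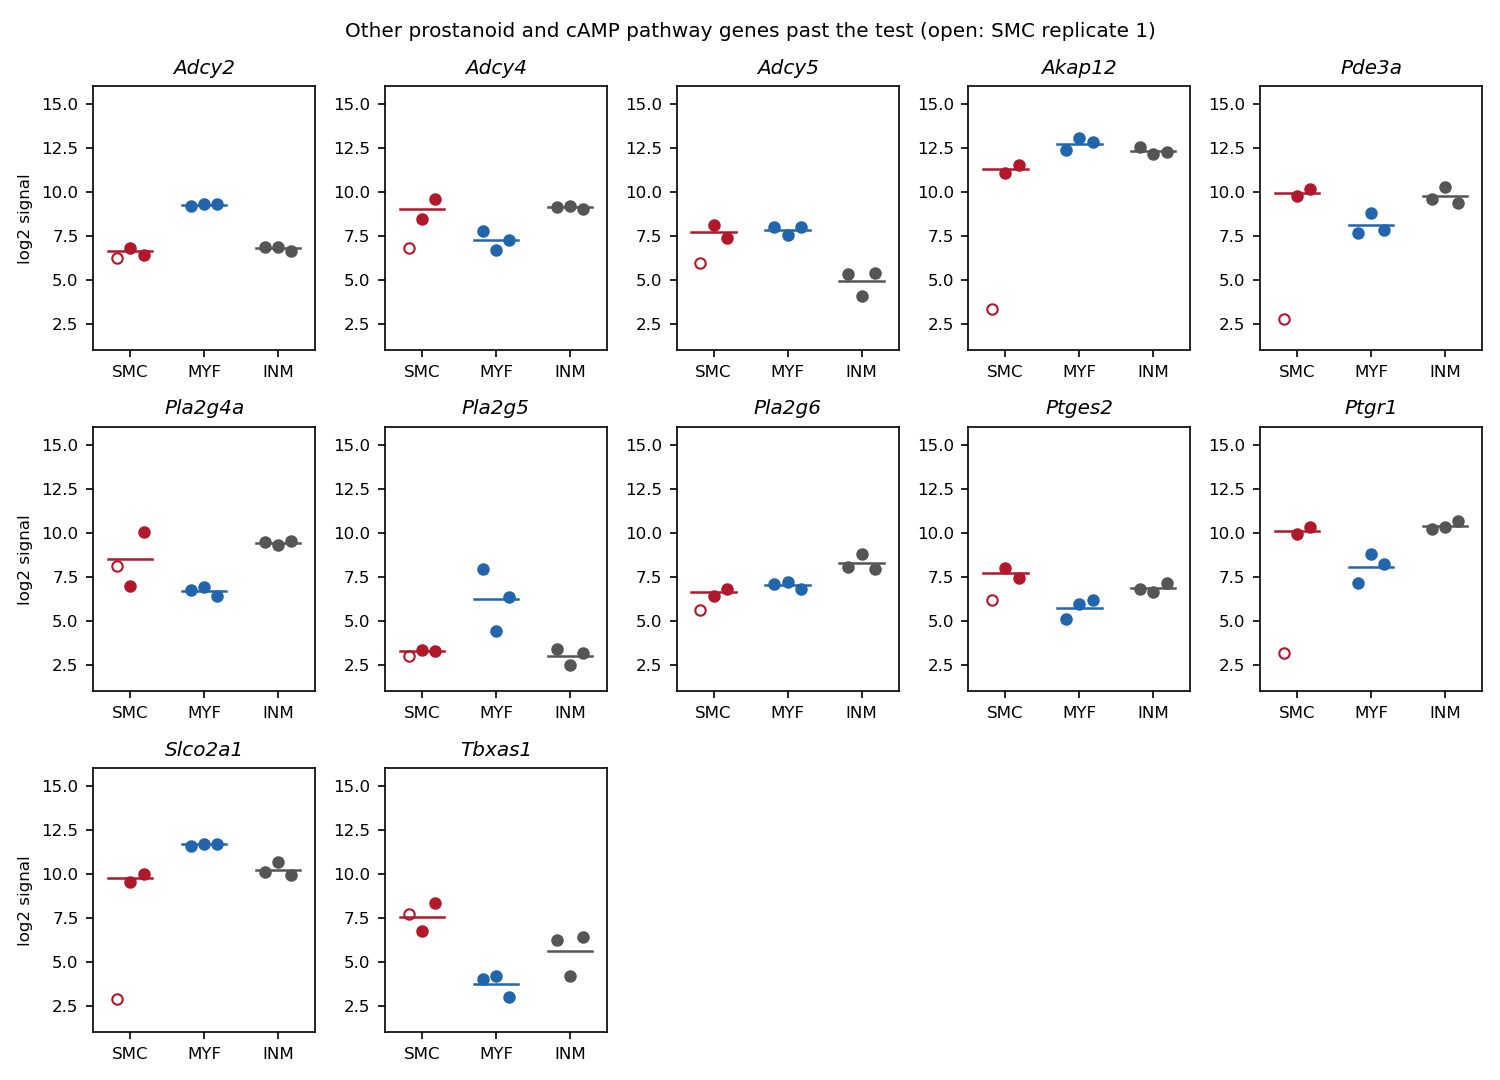
Log2 signal on each array of the genes of the pathway lists that passed in at least 1 comparison. Points are arrays, the open point is SMC replicate 1, and lines are group means without it; Adcy2 and Slco2a1 are highest in the 3 MYF arrays, and Pla2g4a and Ptgr1 are lower in MYF than in INM.

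Likeness of pattern was described for the 4 genes with the widest range of group means, as Pearson's r over the 8 arrays with each of 11282 genes at or above the median level. The arrays share their groups and their processing, so these values are a description. Ptgs2 was most like Cxcl1 (r = 0.980), Ccdc151 (0.980) and S100a4 (0.979), and ran against Ptgs1 (r = -0.85). Ptgis, on its first probe, was most like Lsm6, Sgo2a and Cst3, with r from 0.970 to 0.972. Hpgd was most like Rfwd3 (0.990), Lsm2 (0.986) and Mrps15 (0.965). Ptger3 was most like Vta1 (0.966), Cdc42ep2 (0.947) and Nup88 (0.946), and among the prostaglandin genes most like Ptger2 (0.847) and Ptger4 (0.762).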

How the data were processed

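Each deposited value is the log2 signal of 1 array feature on 1 array; the submitters' processing notes name limma as their tool and give no version. The 9 columns share 1 distribution, so they were read as already normalized between arrays by the authors. Symbols came from the platform annotation, updated through RefSeq records. The members and lists were chosen with earlier results of these data known. Each of 24306 genes was read from its brightest probe, by the mean of the 9 arrays. The comparisons used lmFit and eBayes (limma 3.58.1, R 4.3.3), with 1 mean per group, no covariate, two-sided tests and a Benjamini-Hochberg adjusted p under 0.05 over all genes, over 9 arrays and over 8 without SMC replicate 1. A 95% interval is limma's. The code was tested on simulated data.

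Named were all probes of the 10 genes, every gene of the 4 pathway lists called in a comparison, up to 3 of the brightest genes per marker list, and for the 4 widest-ranging genes the 3 most alike by r. The number of arrays limits the precision. The 3 mice of a group are taken as separate animals, as the labels' design text says. Same-numbered MYF and INM samples did not deviate together (r = -0.018, 0.021 and 0.017), and replicate numbers were not used for pairing. Over all 9 pairs r ran from -0.077 to 0.099. The pairs with SMC cannot settle this, because SMC replicate 1 dominates the deviations from the SMC mean. The alternatives were repeated quantile normalization, median centring, dim genes left out, other rules for probes, a variance trend, array weights, fits of 2 groups alone, a replicate block and leaving out each array. The marker lists for mast cells and platelets, mesothelium and erythroid cells had medians of 0.15, -0.88 and -0.29 for MYF minus INM.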

Additional observations from a re-analysis of the deposited data

How the results depend on the processing

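Over 8 arrays, limma called 1 of the 10 genes for MYF minus INM. That count was 0 with the replicate block, the mean of the probes or the probe with the largest interquartile range. It was 2 with a variance trend, array weights or the compared groups alone. With dim genes left out it was 2 of the 9 genes that were kept. For SMC minus MYF the count was 1. It was 0 under the replicate block, the mean of probes, the interquartile range probe, array weights or the compared groups alone. With dim genes left out it was 3 of the 9 genes that were kept. Over 9 arrays, where the count was 0, MYF minus INM gave 2 with array weights or the compared groups alone, and SMC minus MYF gave 4 with array weights. The counts over all genes rose in these 9-array settings too, to 4726 and 3635 for MYF minus INM and to 4276 for SMC minus MYF. The higher counts of the 10 genes in these 9-array settings are therefore not particular to them. For dim genes left out and for the variance trend, no share of all genes called is given for these comparisons. The counts of the 10 genes in those settings are therefore not read as a result about them. The limma adjusted p of Ptges under the replicate block was 0.0870 for MYF minus INM and 0.144 for SMC minus MYF. The replicate numbers are not known to pair the samples.

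Counts over all genes moved as follows over 9 arrays. MYF minus INM (267 called) gave 4726 with array weights, 3635 with the compared groups alone, 451 with the mean of probes, 441 with the interquartile range probe and 0 with the replicate block. SMC minus MYF (163) gave 4276, 0, 355 (interquartile range probe), 264 (each probe by itself, a count of probes) and 1 (replicate block), the first 2 being array weights and the compared groups alone. SMC minus INM (0) gave 611 with array weights and 3 with the interquartile range probe. Over 8 arrays, MYF minus INM (2598) gave 1577 with the replicate block, 4065 with each probe by itself and 4514 with array weights. SMC minus MYF (1990) gave 767, 3404 and 773 in that order, and 626 with the compared groups alone. SMC minus INM (60) gave 0 with the replicate block, 117 with the variance trend, 3 with array weights and 0 with the compared groups alone. The cause was not tested.

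Leaving out each array in turn, genes called ranged over 9 arrays from 0 to 60 for SMC minus INM, 0 to 2598 for MYF minus INM and 0 to 1990 for SMC minus MYF, with the highest value of each without SMC replicate 1. Over 8 arrays they ranged from 5 to 984, 1139 to 3635 and 817 to 4045. The number of the 10 genes called ranged over 9 arrays from 0 to 1 for MYF minus INM and SMC minus MYF. In the same fits over 8 arrays it was 0 for SMC minus INM and ranged from 0 to 1 for MYF minus INM and for SMC minus MYF.

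Some differences that did not pass changed sign. With the mean of the probes Ptger4 gave 0.20 for MYF minus INM, 0.17 for SMC minus INM and -0.023 for SMC minus MYF, the last -0.28 with the replicate block. With the interquartile range probe, Ptger4 gave 1.15 for SMC minus INM, Ptger3 0.034 for MYF minus INM, and Ptgis -0.40 for SMC minus INM over 9 arrays; Hpgd gave 0.25 there with array weights. With single arrays left out of 9, ranges were -1.64 to 0.59 (Hpgd, SMC minus INM), -0.67 to 1.56 (Hpgd, SMC minus MYF), -0.44 to 0.50 (Ptger1, SMC minus MYF), -1.42 to 0.056 (Ptger2, SMC minus INM), -0.68 to 0.80 (Ptger2, SMC minus MYF), -2.75 to 0.059 (Ptger4, SMC minus MYF), -0.12 to 0 (Ptges, SMC minus INM), -1.42 to 0.18 (Ptgir, MYF minus INM) and -0.97 to 2.17 (Ptgs2, SMC minus MYF). Out of 8 they were -0.20 to 0.74 (Ptger1), -2.02 to 0.66 (Ptger2), -2.08 to 0.77 (Ptger3) and -0.67 to 0.79 (Ptger4) for SMC minus MYF, -0.12 to 0.015 (Ptges), -1.18 to 0.72 (Ptgs1) and -2.73 to 0.47 (Ptgs2) for SMC minus INM, and -1.42 to 0.18 (Ptgir) for MYF minus INM. Repeated quantile normalization and median centring moved no count of the 10 genes. They shifted no array's median by more than 0.000166, because the columns already share a distribution, so they could hardly have moved a count. Both are among the other settings counted above, where they add no real check. The alternative that picked probes by their mean over the 8 arrays, and the alternatives of the other pathway genes, were chosen after seeing the data. Signal over background could not be read, since the values come without detection calls.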
